A study of Mus musculus with 33 samples.

Results

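Expression of 50 genes of the cell cycle and of DNA replication was followed in mouse macrophages and fibroblasts given bacterial or interferon stimuli. The genes were chosen by symbol, current or older, with earlier results of these data known. A gene entered the tests of a cell type when 2 or more of its arrays gave a probe of that name a detection p below 0.01. This left 42 of the 50 genes among 9161 genes tested in macrophages and 40 among 9109 in fibroblasts, and 39 of the 50 were tested in both. The 20 replication genes are Mcm2 to Mcm7, Pcna, Rrm1, Rrm2, Tyms, Tk1, Fen1, Rfc4, Clspn, Msh6, Cdc6, Cdt1, Prim1, Pola1 and Gins1. The 4 genes of G1 and of entry into S phase are Ccnd1, Ccne1, Ccne2 and Cdca7. The 26 mitosis genes are Ccna2, Ccnb1, Ccnb2, Cdk1, Aurka, Aurkb, Plk1, Bub1, Bub1b, Cdc20, Birc5, Top2a, Mki67, Cenpa, Kif11, Kif20a, Anln, Pbk, Cdca2, Cdca3, Cdca8, Incenp, Nusap1, Tpx2, Ttk and Ube2c. On the macrophage arrays no probe was named for Aurkb, Ccnb1, Gins1 or Mki67, and Bub1, Ccnb2, Kif20a and Pola1 were not above background on enough arrays. On the fibroblast arrays no probe was named for Ccnb1, Gins1, Kif20a, Mcm3 or Mki67, and Bub1, Ccnb2, Kif11, Pola1 and Ttk were not above background on enough arrays.

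A cell that divides copies its DNA in S phase and separates the copies in mitosis. Cyclin D binds its kinases in G1, retinoblastoma proteins release E2F transcription factors, and E2F activates the genes that license origins, make nucleotides and build the replication fork. Genes of G2 and mitosis are switched on later by the MuvB complex with B-Myb and FoxM1, many of them through a promoter element named CHR, the cell cycle genes homology region. Macrophages grown from bone marrow divide in answer to the growth factor CSF-1, and lipopolysaccharide is known to stop that division.

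The arrays held RNA of C57BL/6 bone marrow-derived macrophages (BMDM, 23 arrays) or primary embryonic fibroblasts (MEF, 10 arrays). Macrophages came without p50, a subunit of NF-kB (p50KO, 10 arrays), without the receptor for type I interferons (IFNARKO, 2 arrays) or as wild type (WT, 11 arrays). All had grown for 5 to 8 days in medium conditioned by L929 cells, a source of CSF-1. Those of p50KO and WT were measured unstimulated or after 1, 3 or 8 h of lipopolysaccharide (LPS), interferon beta (IFNb) or CpG DNA, and those of IFNARKO unstimulated or after 3 h of LPS. The p50KO (4 arrays) and WT (6 arrays) fibroblasts, at passages 5 to 6 in 10% bovine calf serum, were measured unstimulated or after 1, 3 or 8 h of LPS, and those of WT also after 8 h of IFNb. Most conditions were measured on 1 array per genotype, and unstimulated WT cells of each type on 2. The macrophage arrays were taken as a CpG series of 8 arrays and an LPS and IFNb series. The single unstimulated p50KO macrophage array was titled as part of the CpG course. No unstimulated macrophage array was titled for IFNb, and placing the IFNb arrays with those of LPS is an inference that the titles do not state. The labels give no doses, and nothing in them says that the samples were separate cultures or animals. The p-values therefore describe the spread between these samples alone, which may in part be technical. With 1 array per genotype and matched condition, that spread is how the p50KO minus WT difference varies between conditions. In macrophages it takes in the p50KO LPS arrays that stood apart from their labels, described below.

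The promoters of these genes hold different short motifs by class, and 7 windows are printed to show them. RefSeq promoter windows (assembly GRCm38.p6, 250 bases before to 50 after a start) were found for 39 of the 50 genes, 41 windows in all. Each was searched on both strands for TTTNNCGC, an E2F-type motif, for TTTGAA, the CHR core, and for CCAAT, the box that NF-Y binds. The searches share no letters with each other in the windows printed. The E2F-type motif was in 10 of 20 replication windows (50%) and in 1 of 19 mitosis windows (5.26%), against 1698 of all 32851 windows (5.17%). The CHR core was in 15 of 19 mitosis windows (78.9%) and in 2 of 20 replication windows (10.0%), against 17.9% of all windows. CCAAT was in 84.2% of the mitosis windows and 65.0% of the replication windows, against 37.4% of all windows. A match is a description of these letters and does not show that a factor binds.

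The windows of Cdca7 (chr2:72475969-72476268, plus strand), Cdc6 (chr11:98907901-98908200, plus strand), Cdt1 (chr8:122567765-122568064, plus strand) and Msh6 (chr17:87974800-87975099, plus strand) are shown because these genes were lowest, relative to unstimulated, on the WT array at 3 h of LPS among genes with a window. Each holds 1 E2F-type motif. They run 5′ to 3′ along the gene, with E2F-type and CCAAT matches on either strand in capitals.
Cdca7: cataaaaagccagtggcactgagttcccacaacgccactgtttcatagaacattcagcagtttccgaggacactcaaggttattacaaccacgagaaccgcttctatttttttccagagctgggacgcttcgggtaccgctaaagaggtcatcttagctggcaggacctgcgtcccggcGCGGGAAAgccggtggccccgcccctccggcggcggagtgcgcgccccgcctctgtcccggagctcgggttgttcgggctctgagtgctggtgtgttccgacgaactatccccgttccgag
Cdc6: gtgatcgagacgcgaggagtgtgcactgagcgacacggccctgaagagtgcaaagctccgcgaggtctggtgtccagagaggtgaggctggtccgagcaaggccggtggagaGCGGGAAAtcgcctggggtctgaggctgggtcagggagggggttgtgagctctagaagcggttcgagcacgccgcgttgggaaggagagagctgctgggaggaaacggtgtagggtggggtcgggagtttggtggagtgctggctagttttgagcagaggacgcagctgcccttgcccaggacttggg
Cdt1: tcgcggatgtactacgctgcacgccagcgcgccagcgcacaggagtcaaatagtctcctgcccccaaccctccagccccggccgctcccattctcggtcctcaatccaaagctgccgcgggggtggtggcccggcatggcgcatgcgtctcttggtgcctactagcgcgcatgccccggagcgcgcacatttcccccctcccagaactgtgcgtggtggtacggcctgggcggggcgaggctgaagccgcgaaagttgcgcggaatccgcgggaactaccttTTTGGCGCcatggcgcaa
Msh6: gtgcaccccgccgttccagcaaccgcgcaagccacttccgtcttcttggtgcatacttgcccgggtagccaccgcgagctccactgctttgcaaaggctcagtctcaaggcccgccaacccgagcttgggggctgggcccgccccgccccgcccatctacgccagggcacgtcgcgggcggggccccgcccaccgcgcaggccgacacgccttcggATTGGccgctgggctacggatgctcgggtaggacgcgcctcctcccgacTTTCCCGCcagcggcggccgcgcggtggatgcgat

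The windows of the mitosis genes Cdc20 (chr4:118437294-118437593, minus strand), Kif11 (chr19:37376132-37376431, plus strand) and Plk1 (chr7:122159185-122159484, plus strand) are shown because each holds 1 CHR core, which lies downstream of a CCAAT box in all 3. In WT cells 24.3% of the 8 h fall of Cdc20 and 32.7% of that of Plk1 was reached at 3 h of LPS, and over both genotypes their log2 differences at 8 h were -3.64 and -2.87. Kif11 was not above background at 8 h and was at least 6.2-fold lower. Capitals mark CHR and CCAAT matches on either strand.
Cdc20: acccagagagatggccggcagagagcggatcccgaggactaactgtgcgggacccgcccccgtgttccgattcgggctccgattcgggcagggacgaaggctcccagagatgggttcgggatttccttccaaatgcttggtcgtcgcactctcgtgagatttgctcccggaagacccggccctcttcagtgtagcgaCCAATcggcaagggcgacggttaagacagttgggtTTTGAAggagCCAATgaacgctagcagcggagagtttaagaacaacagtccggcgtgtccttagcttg
Kif11: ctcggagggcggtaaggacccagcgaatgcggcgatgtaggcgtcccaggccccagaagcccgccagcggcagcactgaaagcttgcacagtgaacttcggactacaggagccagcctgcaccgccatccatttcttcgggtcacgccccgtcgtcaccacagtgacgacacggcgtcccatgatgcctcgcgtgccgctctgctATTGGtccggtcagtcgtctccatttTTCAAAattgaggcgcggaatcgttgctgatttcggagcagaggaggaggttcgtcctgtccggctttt
Plk1: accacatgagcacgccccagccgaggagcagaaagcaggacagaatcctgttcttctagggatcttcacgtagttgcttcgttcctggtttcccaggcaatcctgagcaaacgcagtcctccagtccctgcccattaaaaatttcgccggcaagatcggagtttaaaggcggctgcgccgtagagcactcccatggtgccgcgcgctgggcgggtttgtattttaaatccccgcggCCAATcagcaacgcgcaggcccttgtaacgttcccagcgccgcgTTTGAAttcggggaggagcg

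Summed intensity was 7430000 to 15020000 units on the macrophage arrays and 11230000 to 13800000 on the fibroblast arrays, and 33.6 to 50.4% of probes were above background. No probe was named for Nfkb1, which encodes p50, and the 1 probe of Ifnar1 was above background on no array, so neither gene checks the genotype labels. All 6 measured macrophage markers were detected in BMDM, and 7 of 8 fibroblast markers were not. In MEF all 8 fibroblast markers were detected, and so were 4 of 6 macrophage markers.

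Some p50KO arrays of the LPS series stood apart from their labels. Over the 42 genes, that labelled LPS 1 h was nearest to the WT array labelled LPS 3 h (root mean square difference 0.25 on the log2 scale, against 1.17 to the WT array labelled 1 h). Over 12 immediate-early genes, which do not belong to the set, these distances were 0.55 and 2.31. The p50KO array labelled LPS 3 h lay closest to the WT array labelled 8 h over the 42 genes (0.39, against 2.07 to WT at 3 h), whereas by the immediate-early genes WT at 3 h was nearest (0.65). The p50KO array labelled LPS 8 h lay closest to the WT array labelled 8 h (0.51). A change of labels and a faster response of p50KO cells cannot be told apart here. The counts at 3 h and 8 h of LPS are given with and without the arrays labelled LPS 1 h and 3 h, and the single genes from the fit with them unless stated otherwise.

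LPS lowered nearly the whole gene set in macrophages by 8 h. Of the 42 genes tested, 36 fell and none rose (two-sided limma test over both genotypes with Benjamini-Hochberg adjustment over all genes, adjusted p under 0.05), against 18.2% of all genes that fell and 12.3% that rose. The falls took in 14 of 18 replication genes, 4 of 4 G1 and S-entry genes and 18 of 20 mitosis genes. The median log2 difference, LPS at 8 h minus unstimulated, was -2.58 over the set, -2.19 over replication genes and -2.61 over mitosis genes, against -0.0906 over all genes. In bulk RNA, fewer dividing cells and less of these RNAs per cell cannot be told apart. Without the p50KO arrays labelled LPS 1 h and 3 h, an alternative chosen after seeing the data, 38 genes fell, against 24.4% of all genes. They were the same 36 with Cdt1 and Ube2c. The log2 differences of the 42 genes moved by -0.28 to -0.03, and their standard errors were 0.18 to 0.42 in that fit, against 0.25 to 1.08 with the arrays.

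**Figure D1:**
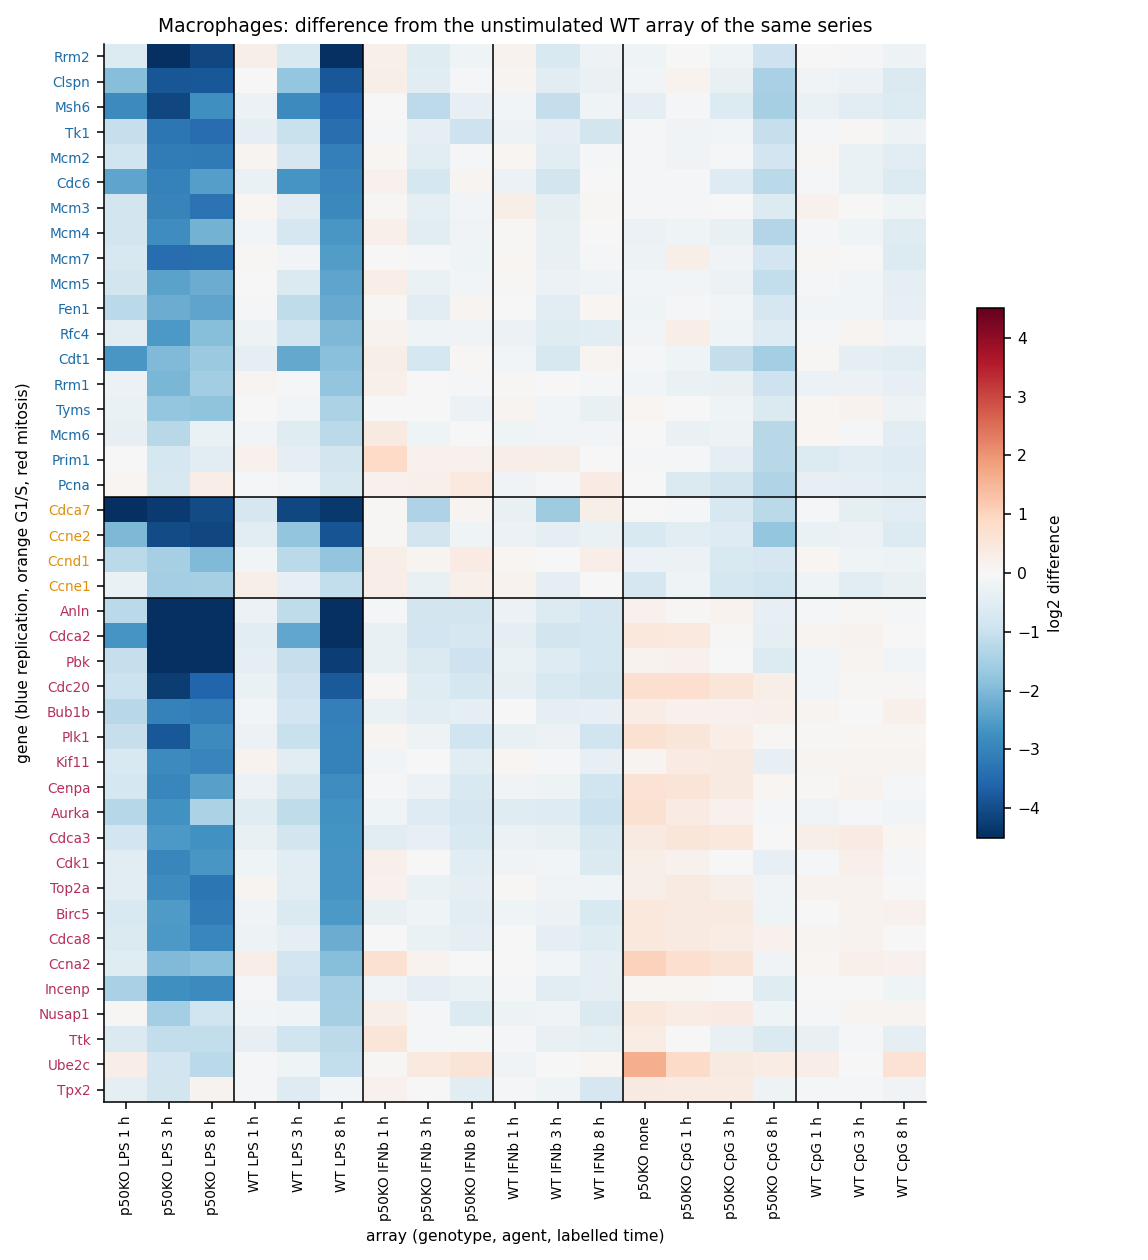
Log2 difference of each of the 42 genes (rows, grouped by class) on each macrophage array (columns, p50KO before WT for each agent) from the unstimulated WT array of its series. The blue columns of LPS at 8 h in both genotypes and of the p50KO array labelled LPS 3 h stand out, and the IFNb and CpG columns stay pale.

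The helicase that opens replication origins is a ring of the 6 Mcm proteins. In WT macrophages Mcm5 measured 12.20 on the unstimulated array of the LPS series and 12.21, 11.54 and 9.84 at 1, 3 and 8 h of LPS (log2 intensity), and the p50KO arrays labelled 1, 3 and 8 h gave 11.39, 9.79 and 9.97. Mcm3 measured 8.95, 9.03, 8.46 and 6.05 on those WT arrays and 8.13, 5.95 and 5.62 on those p50KO arrays. Both genes held their level at 1 h in WT cells and were low at 8 h in both genotypes, with no overlap between the 8 h and the unstimulated arrays. The fall at 8 h was -2.14 ± 0.47 for Mcm5 (SE, limma adjusted p = 0.00557) and -2.87 ± 0.57 for Mcm3 (adjusted p = 0.00391). Mcm2 (-2.95), Mcm4 (-2.19) and Mcm7 (-2.69, not above background on the p50KO array) fell too, while Mcm6 was -0.72 ± 0.41 and did not pass (adjusted p = 0.204).

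Cdc6 and Cdt1 load that helicase onto origins. Cdc6 measured 9.02, 8.73, 6.35 and 6.06 on the WT arrays at 0, 1, 3 and 8 h, and 6.64, 5.98 and 6.55 on the p50KO arrays labelled 1, 3 and 8 h. It was already at its low level at 3 h in WT cells and on the p50KO array labelled 1 h. Cdt1 measured 11.95, 11.51, 9.66 and 10.08 on the WT arrays and 9.34, 9.97 and 10.28 on the p50KO arrays. It was lowest at 3 h in WT cells and somewhat higher at 8 h. At 8 h Cdc6 fell (-2.60 ± 0.56, adjusted p = 0.00509), and Cdt1 did not pass the test at -1.59 ± 0.59 (adjusted p = 0.0558). Without the p50KO arrays labelled 1 h and 3 h Cdt1 passed (-1.66 ± 0.34, adjusted p = 0.00207).

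Rrm2 is the regulated subunit of ribonucleotide reductase, which makes the building blocks of DNA. It measured 9.01, 9.29 and 8.34 on the WT arrays at 0, 1 and 3 h and was not above background at 8 h (4.48). On the p50KO arrays it measured 8.40 at the label 1 h and was not above background at 3 h (4.51) or 8 h (4.90). With no LPS 8 h array above background against 3 of 3 unstimulated arrays, Rrm2 was at least 18.2-fold lower (adjusted p = 0.00607), a bound set by the lowest signal above background. Its partner Rrm1 fell less (-1.55 ± 0.49, adjusted p = 0.0301). The thymidylate-making enzymes Tk1 (-3.21) and Tyms (-1.45) fell, and of the 3 dimmer probes of Tyms 1 moved the same way in WT cells (-1.40) and 2 the other way (0.50 and 0.54).

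Msh6, a mismatch repair protein, measured 10.09, 9.81, 7.22 and 6.51 on the WT arrays and 7.24, 5.99 and 7.32 on the p50KO arrays. Like Cdc6 it was low by 3 h in WT cells, and it fell at 8 h (-2.96 ± 0.70, adjusted p = 0.00774). Clspn, an adaptor of the replication checkpoint, fell (-3.60), as did Fen1, the flap nuclease of Okazaki fragments (-2.20), and Rfc4, a subunit of the clamp loader (-1.91). The sliding clamp Pcna (-0.20 ± 0.42, adjusted p = 0.758) and the primase subunit Prim1 (-0.65 ± 0.32, adjusted p = 0.143) did not pass. Pcna measured 9.35, 9.30, 9.24 and 8.64 on the WT arrays and 9.45, 8.64 and 9.65 on the p50KO arrays, so its LPS 8 h arrays overlapped the unstimulated range.

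Among the genes of G1 and S entry, Ccnd1 (cyclin D1) measured 13.74, 13.61, 12.53 and 11.98 on the WT arrays and 12.54, 12.24 and 11.77 on the p50KO arrays. Ccne1, the gene of cyclin E1, measured 7.11, 7.37, 6.74 and 6.01 in WT and 6.81, 5.59 and 5.61 in p50KO cells. Ccne2, that of cyclin E2, measured 8.45, 7.97 and 6.66 at 0, 1 and 3 h in WT cells and was not above background at 8 h (4.57). All 3 cyclins were lower at 8 h than on any unstimulated array. On the p50KO arrays Ccne2 measured 6.44 at the label 1 h and was not above background at 3 h (4.44) or 8 h (4.36). The falls at 8 h were -1.72 ± 0.31 for Ccnd1 (adjusted p = 0.00275) and -1.13 ± 0.35 for Ccne1 (adjusted p = 0.0289), and Ccne2 was at least 10.7-fold lower (adjusted p = 0.00176).

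Cdca7, a target of Myc and E2F that helps to maintain DNA methylation, measured 11.01, 10.24, 6.92 and 6.66 on the WT arrays and 6.51, 6.69 and 7.0 on the p50KO arrays. It was low from 3 h on in WT cells and on all 3 p50KO arrays, and its fall at 8 h was -3.98 ± 0.90 (adjusted p = 0.0063).

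Among the mitosis genes, Cdk1, the kinase that drives entry into mitosis, measured 10.33, 10.13, 9.82 and 7.66 on the WT arrays and 9.86, 7.38 and 7.71 on the p50KO arrays. Top2a, the topoisomerase that untangles chromosomes, measured 10.15, 10.28, 9.66 and 7.50 on the WT arrays and 9.64, 7.32 and 6.89 on the p50KO arrays. Both genes were still at 9.66 or above at 3 h in WT cells and were low at 8 h in both genotypes. The falls at 8 h were -2.55 ± 0.62 for Cdk1 (adjusted p = 0.00869) and -2.79 ± 0.58 for Top2a (adjusted p = 0.00471). Ccna2, the gene of cyclin A2, measured 6.24, 6.53 and 5.37 at 0, 1 and 3 h in WT cells and was not above background at 8 h in WT (4.32) or p50KO cells (4.35). It was at least 2.8-fold lower (adjusted p = 0.0137).

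Cdca2, which brings protein phosphatase 1 to chromatin, fell at 8 h (adjusted p = 0.00232). It measured 9.68, 9.19 and 7.35 at 0, 1 and 3 h in WT cells and was not above background at 8 h (4.99), so its fall is a bound, at least 21.5-fold over both genotypes. On the p50KO arrays it measured 7.02 at the label 1 h and was not above background at 3 h (4.69) or 8 h (4.78). Anln, the actin-binding protein of the cleavage furrow, measured 11.01, 10.74, 9.86 and 6.30 on the WT arrays and 9.79, 5.28 and 6.33 on the p50KO arrays. Pbk, a mitotic kinase, measured 10.69, 10.30, 9.67 and 6.47 in WT and 9.67, 6.19 and 5.57 in p50KO cells. In each of these 3 genes the WT arrays at 0 and 1 h were high and those at 8 h low. Anln (-4.43 ± 1.08, adjusted p = 0.00876) and Pbk (-4.41 ± 0.82, adjusted p = 0.00308) fell.

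The checkpoint and exit genes Cdc20 (-3.64), Bub1b (-2.92), Plk1 (-2.87) and Aurka (-2.12) fell. Of the chromosomal passenger complex, the genes of survivin, Birc5 (-2.79), of borealin, Cdca8 (-2.49), and Incenp (-1.96) fell. The motor protein gene Kif11 was at least 6.2-fold lower and the spindle checkpoint kinase gene Ttk at least 2.12-fold lower, since neither was above background at 8 h. The centromeric histone gene Cenpa (-2.60), Cdca3 (-2.62) and Nusap1 (-1.25) fell as well. The ubiquitin-conjugating enzyme gene Ube2c (-1.30 ± 0.47, adjusted p = 0.0519) did not pass, and without the p50KO arrays labelled 1 h and 3 h it did (-1.36 ± 0.42, adjusted p = 0.0215). Tpx2, which activates Aurora A on the spindle, measured 9.09, 9.05, 8.51 and 8.97 on the WT arrays and 8.70, 8.28 and 9.24 on the p50KO arrays, and its difference at 8 h was -0.06 ± 0.25 (adjusted p = 0.878).

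Of 9 measured genes on the granulocyte and progenitor list, Camp and S100a8 lay above the unstimulated range on both LPS 8 h arrays and 7 overlapped it. The list holds 11 markers, and the summed intensity of the 9 was 6050 to 6780 on the LPS 8 h arrays and 1180 to 5960 on the unstimulated arrays. Over all WT LPS arrays that sum was 6780 to 13400. The unstimulated arrays in the sums include that of IFNARKO, and the ranges of single genes leave it out. Both span the CpG series and the LPS and IFNb series. The neutrophil gene S100a8 measured 12.20 to 12.32 on the LPS 8 h arrays and 9.55 to 12.08 on the unstimulated arrays, while the progenitor gene Mpo overlapped, at 6.68 to 7.15 on the LPS 8 h arrays and 6.08 to 8.24 on the unstimulated arrays (log2 intensity). The summed macrophage markers were 49400 to 56000 on the LPS 8 h arrays and 46100 to 55100 on the unstimulated arrays. The sum hides opposite moves of the 6 measured. On both LPS 8 h arrays Itgam, Fcgr1 and Cd14 lay above the unstimulated range, Lyz2 and Mrc1 lay below it, and 1 overlapped. The part of these cells in the falls was not tested.

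At 1 h of LPS no gene of the set passed the limma test, with 3 at an unadjusted p under 0.05, and 1.3% of all genes passed. At 3 h the genes split. Over both genotypes 14 of 42 genes fell and none rose, against 7.51% of all genes that fell and 5.91% that rose. These were 7 of 18 replication genes, 3 of 4 G1 and S-entry genes and 4 of 20 mitosis genes. Cdca7 led (-4.0 ± 0.90, adjusted p = 0.0187), followed by Cdca2 (-3.42 ± 0.79), Msh6 (-3.26 ± 0.70), Cdc6 (-2.74 ± 0.56), Ccne2 (-2.59 ± 0.59) and Clspn (-2.58 ± 0.66), with adjusted p between 0.0126 and 0.027. Cdca2 and Ccne2 were not above background on the p50KO array labelled 3 h. Without the p50KO arrays labelled 1 h and 3 h, 19 genes fell at 3 h, 7 replication, 3 G1 and S-entry and 9 mitosis genes, against 9.67% of all genes. Of the 14, Rfc4 no longer passed, and Anln, Bub1b, Cdc20, Cenpa, Mcm2 and Plk1 were added. In that fit the values were -4.09 ± 0.32 for Cdca7, -2.87 ± 0.40 for Msh6, -2.67 ± 0.32 for Cdc6, -2.33 ± 0.27 for Cdca2 and -2.29 ± 0.39 for Cdt1, and the median over the set was -0.81. It compares the lone WT array at 3 h and assumes that it varies like the other groups.

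The share of the 8 h fall that WT cells had reached at 3 h ranged widely. Of the 39 genes that were at least 2-fold lower at 8 h, 33 were above background on the WT array at 8 h, and the shares are given for these. For the other 6 the 8 h fall is a lower bound and the share an upper limit. The share was 123% for Cdt1, 94.0% for Cdca7, 89.9% for Cdc6, 80.2% for Msh6 and 68.8% for Ccnd1. At the other end it was 19.4% for Cdk1, 18.5% for Top2a, 16.9% for Mcm3, 6.15% for Rrm1 and 5.53% for Mcm7. High and low shares were both found within the replication class, whose median was 29.1% (15 genes), beside 24.4% for the mitosis genes (15 genes) and 68.8% for 3 genes of G1 and S entry. Among the helicase genes the share ran from 5.53% for Mcm7 to 45.5% for Mcm6. Genes with an E2F-type motif in the printed or other windows had a median share of 45.5% (11 genes), and genes without one 26.6% (18 genes), but the median log2 difference at 3 h was smaller in size with the motif (-0.66) than without it (-0.81). For CHR the median shares were 24.4% with it (13 genes) and 31.4% without it (16 genes), and the median differences at 3 h -0.82 and -0.66. These shares rest on 1 WT array per time and have no test.

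**Figure D2:**
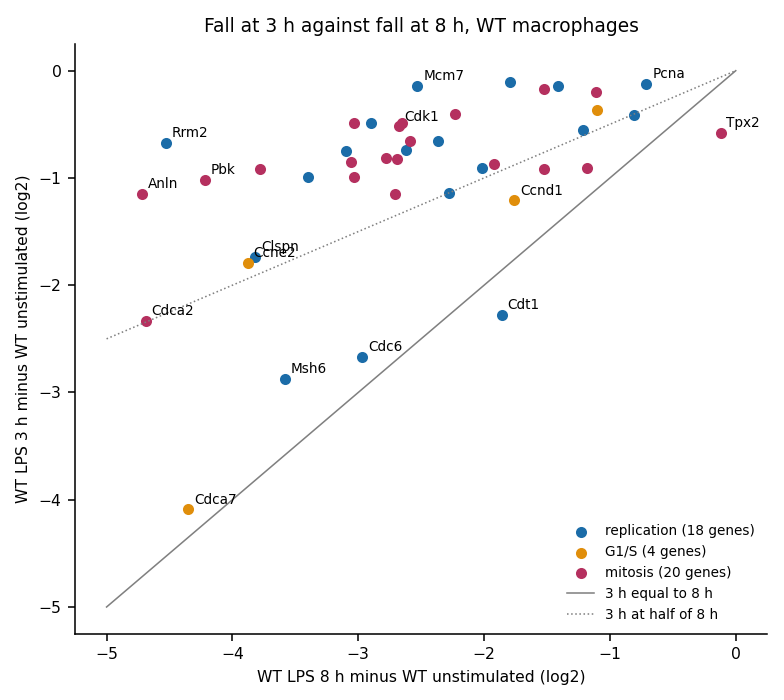
Log2 difference from the unstimulated array at 3 h of LPS (vertical) against 8 h (horizontal) in WT macrophages, 1 array per time, 1 point per gene, coloured by class. Cdca7, Msh6, Cdc6 and Cdt1 lie near or below the solid line where the 3 h fall equals the 8 h fall, and Mcm7 and Cdk1 lie near the top. The 8 h values of Ccna2, Ccne2, Cdca2, Kif11, Prim1, Rrm2 and Ttk are not above background.

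The early genes were also lower at 3 h of LPS in IFNARKO macrophages, as single arrays show. Cdc6 measured 6.84 at 3 h of LPS and 9.47 unstimulated in IFNARKO cells, and 6.35 and 9.02 in WT cells. Cdca7 measured 8.70 and 11.09 in IFNARKO cells and 6.92 and 11.01 in WT cells. Cdt1 measured 10.12 and 12.12 in IFNARKO cells and 9.66 and 11.95 in WT cells. In each gene the LPS array of both genotypes was the low one. Msh6 measured 8.95 and 11.01 in IFNARKO cells and 7.22 and 10.09 in WT cells, and Ccnd1 measured 11.67 and 13.24 in IFNARKO cells and 12.53 and 13.74 in WT cells. The log2 differences in IFNARKO cells were -2.63 for Cdc6, -2.40 for Cdca7, -2.05 for Msh6, -2.01 for Cdt1, and -1.57 for both Ccnd1 and Clspn. In the same order the WT values were -2.67, -4.09, -2.87, -2.28, -1.21 and -1.74. Cdca2 was -1.05 in IFNARKO and -2.33 in WT cells, and Aurka was -0.47 and -1.15. In IFNARKO cells 8 of the 42 genes were at least 2-fold lower (3.81% of all genes), with a median of -0.62 over the set. In WT cells 12 were at least 2-fold lower (6.28% of all genes), with a median of -0.81. Cdk1 (10.30 and 10.92) differed by -0.62 and Top2a (9.84 and 10.05) by -0.20 in IFNARKO cells. With 1 array per condition there is no test of these differences.

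With IFNb no gene of the set passed the limma test at 1, 3 or 8 h, against 0, 0.0327 and 0% of all genes. At an unadjusted limma p under 0.05 there were 0, 0 and 1 of the set. At 8 h the median log2 difference was 0.08 over replication genes and -0.50 over mitosis genes. The spread used in this fit includes the p50KO LPS arrays. In a fit without all LPS arrays, chosen after seeing the data, 4.27% of all genes passed at 3 h of IFNb. The lack of calls with all arrays therefore does not show that IFNb left the set unchanged. Set directly against IFNb at 8 h, LPS at 8 h gave 37 lower genes and 1 higher gene, Tpx2 (0.64 ± 0.20, adjusted p = 0.023), against 24% of all genes lower and 17.4% higher. Among genes above background on both LPS 8 h arrays the largest of these differences were Cdca7 (-4.36 ± 0.72), Anln (-3.91 ± 0.86), Pbk (-3.82 ± 0.66) and Clspn (-3.62 ± 0.53), with adjusted p between 0.000324 and 0.00348. Cdca2, Rrm2 and Ccne2, above background on neither, were at least 13.9-fold, 12.8-fold and 8.44-fold lower with LPS than with IFNb. Only Aurka, Mcm6, Nusap1 and Pcna did not pass there.

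Under IFNb some genes that were early under LPS were lowest at 3 h. Cdca7 measured 11.06, 9.63 and 11.12 at 1, 3 and 8 h in p50KO cells and 10.69, 9.42 and 11.26 in WT cells. Msh6 measured 10.06, 8.92 and 9.72 in p50KO cells and 9.96, 9.03 and 9.88 in WT cells. Cdt1 measured 12.20, 11.17 and 11.99 in p50KO cells and 11.83, 11.22 and 12.07 in WT cells. In all 3 genes the 3 h array was the lowest in both genotypes. Cdc6 measured 9.22, 8.22 and 9.15 in p50KO cells and 8.76, 8.18 and 9.04 in WT cells, the same shape. The 3 h array lay below both its neighbours in both genotypes in 11 of 18 replication genes (61.1%), in 4 of 4 genes of G1 and S entry and in 3 of 20 mitosis genes (15.0%), against 22.7% of all genes. This shape was noticed after seeing the values and has no test of its own. In a fit without all LPS arrays, an alternative chosen after seeing the data, Cdca7 fell at 3 h of IFNb (-1.45 ± 0.26, adjusted p = 0.00949), against 1.35% of all genes. At an unadjusted limma p under 0.05, 14 of the 42 genes were lower in that fit. Of all 9161 genes 1480 differed at that level in either direction.

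**Figure D3:**
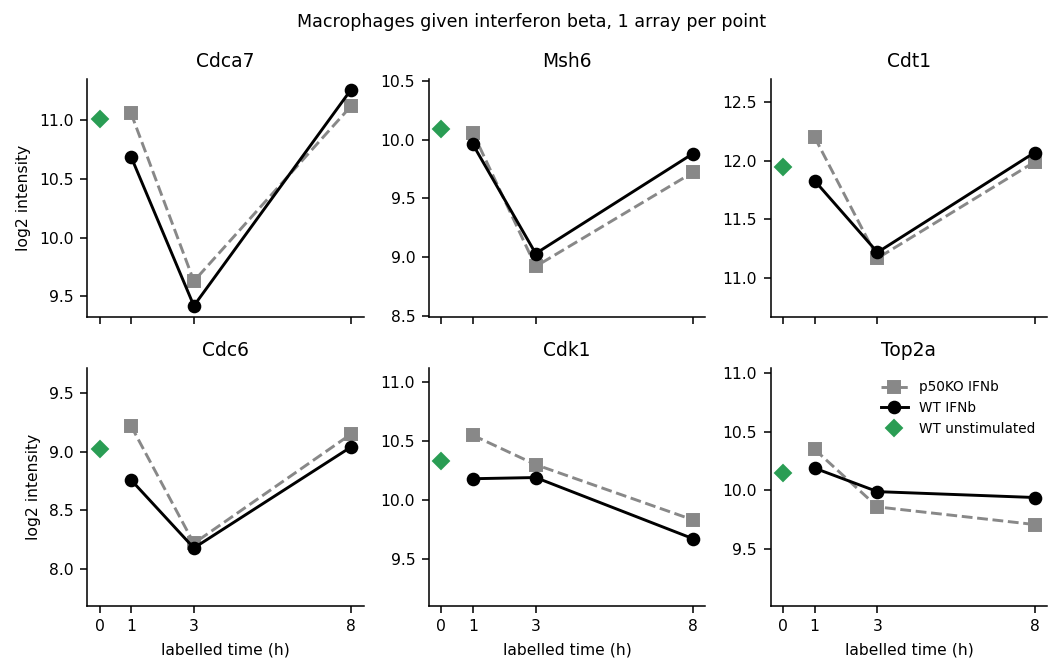
Log2 intensity of 6 genes against labelled time of IFNb in p50KO (grey squares) and WT (black circles) macrophages, with the unstimulated WT array of that series (green diamond), 1 array per point. Cdca7, Msh6, Cdt1 and Cdc6 dip at 3 h in both genotypes, while Cdk1 and Top2a are lowest at 8 h.

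The mitosis genes took another course under IFNb. Cdk1 measured 10.55, 10.30 and 9.83 at 1, 3 and 8 h in p50KO cells and 10.18, 10.19 and 9.67 in WT cells, lowest at 8 h in both. Ccna2 measured 6.92, 6.40 and 6.25 in p50KO cells and 6.26, 6.12 and 5.80 in WT cells. In WT cells at 8 h the mitosis median was -0.68 from the unstimulated array, with Aurka at -0.95, while the replication median was -0.08. Without all LPS arrays Aurka fell at 8 h (-0.99 ± 0.21, adjusted p = 0.0488), against 0.306% of all genes. At an unadjusted limma p under 0.05, 15 of the 42 genes were lower at 8 h there. Of all 9161 genes 1119 differed at that level in either direction. In the same fit Plk1, Cenpa, Tpx2 and Anln were lower at 8 h than at 1 h (-0.62 to -0.77), against 1.96% of all genes. Ccnd1 measured 14.00, 13.86 and 14.10 in p50KO cells and 13.83, 13.71 and 14.04 in WT cells, and Mcm5 measured 12.49, 11.90 and 12.06 in p50KO cells and 12.24, 11.92 and 12.02 in WT cells. Neither came near its level at 8 h of LPS.

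**Figure D4:**
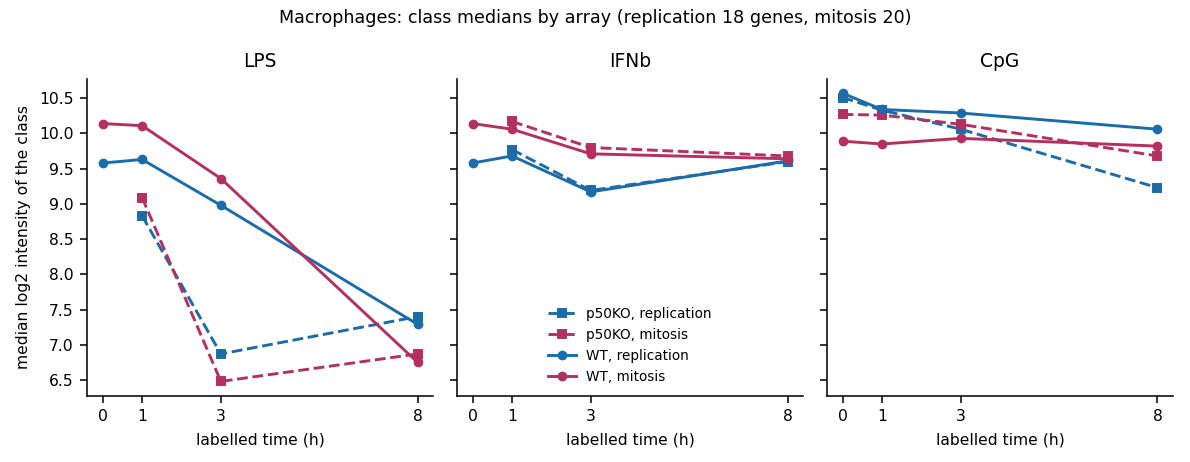
Median log2 intensity of the 18 replication and 20 mitosis genes on each array against labelled time of LPS, IFNb or CpG, p50KO dashed and WT solid, 1 array per point. At 8 h of LPS the class medians lie between 6.75 and 7.40 in both genotypes, while all IFNb and CpG arrays lie above 9.

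With CpG no gene of the set passed the limma test at 1, 3 or 8 h, with 0, 0 and 4 at an unadjusted p under 0.05, and 0, 0.0546 and 0.218% of all genes passed. At 8 h the median log2 difference was -0.45 over the set, -0.69 over replication genes and -0.31 over mitosis genes. Without all LPS arrays 4 genes fell at 8 h, Clspn (-1.0 ± 0.22, adjusted p = 0.0358), Cdc6 (-0.87 ± 0.20), Mcm4 (-0.80) and Mcm2 (-0.66), all of the replication class, against 0.775% of all genes. At an unadjusted limma p under 0.05, 25 of the 42 genes were lower in that fit. Of all 9161 genes 1587 differed at that level in either direction. After adjustment 2.42% of all genes passed there, against 0.218% with all arrays. The lack of calls with all arrays does not show that CpG left the set unchanged.

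On single arrays, replication genes were lower in p50KO than in WT cells at 8 h of CpG. Over the 18 tested the median difference was -0.66, where the median over all genes was -0.04. The median level of the mitosis class on these arrays was 9.68 in p50KO and 9.82 in WT cells. Cdt1 measured 11.44, 11.33, 10.44 and 9.97 at 0, 1, 3 and 8 h in p50KO cells and 11.51, 11.57, 11.11 and 11.02 in WT cells. Cdc6 measured 9.42, 9.42, 8.93 and 8.31 in p50KO cells and 9.52, 9.47, 9.21 and 8.89 in WT cells. Mcm5 measured 11.77, 11.75, 11.63 and 10.78 in p50KO cells and 11.88, 11.80, 11.76 and 11.45 in WT cells. In these 3 genes the genotypes were close when unstimulated, and p50KO was the lower at 8 h. Ccne2 measured 8.23, 8.43, 8.33 and 7.17 in p50KO cells and 8.91, 8.61, 8.63 and 8.29 in WT cells. Ccna2 measured 7.29, 7.01, 6.86 and 6.10 in p50KO cells and 6.27, 6.35, 6.50 and 6.47 in WT cells, where it started lower. Relative to their own unstimulated arrays, 8 of 18 replication and 2 of 20 mitosis genes were at least 2-fold lower at 8 h in p50KO cells, with class medians of -0.99 and -0.63. No gene of the set was 2-fold lower in WT cells, where the class medians were -0.49 and 0.00. Over all genes 0.982% were at least 2-fold lower in p50KO and 0.12% in WT cells. Over the 3 CpG times no gene of the set passed the p50KO minus WT test, against 0.502% of all genes. At an unadjusted limma p under 0.05 there was 1. The medians were -0.28 over replication and 0.10 over mitosis genes. Without all LPS arrays, a setting chosen after seeing the data, 3 of the set were lower and 1 higher in p50KO. In that fit 5.31% of all genes passed in either direction.

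Between the genotypes, the 10 matched macrophage conditions gave no gene of the set (limma, 5 at an unadjusted p under 0.05), against 0.48% of all genes. In LPS, 11 of 42 genes were lower in p50KO than in WT cells over the 3 times and none was higher, against 3.97% of all genes lower and 3.6% higher. Cdca2 (-1.68 ± 0.37), Pbk (-1.67 ± 0.44), Mcm7 (-1.64 ± 0.40), Incenp (-1.52 ± 0.14), Ccne2 (-1.32 ± 0.33) and Mcm3 (-1.28 ± 0.31) led, with adjusted p between 0.00188 and 0.049. Top2a, Cdca8, Birc5, Fen1 and Ccne1 were also lower (-0.70 to -1.20). Cdca2, Ccne2 and Mcm7 were above background on 1 of the 3 p50KO arrays. This count rests on the p50KO arrays that stood apart from their labels. The matched arrays had a median p50KO minus WT difference of -0.73 at the label 1 h, -1.86 at 3 h and 0.04 at 8 h. At 8 h only Incenp was at least 2-fold lower in p50KO, and Aurka and Pcna were at least 2-fold higher, against 4.3% of all genes lower and 5.01% higher. Without the arrays labelled LPS 3 h, 6 genes passed, and without those labelled 1 h, 8 did. With IFNb no gene of the set passed (1 at an unadjusted p under 0.05), against 0.164% of all genes, and the median was 0.08.

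Incenp, the inner centromere protein that anchors the Aurora B complex, was the only gene of the set at least 2-fold lower in p50KO than in WT cells at all 3 labelled LPS times. It measured 8.68, 7.39 and 7.28 on the p50KO arrays labelled LPS 1, 3 and 8 h and 10.10, 9.21 and 8.62 on the WT arrays. The p50KO array was the lower at each label, with differences of -1.42, -1.82 and -1.33. Over the set the p50KO arrays labelled 1 h and 3 h lay closest to the WT arrays labelled 3 h and 8 h. Beside those WT arrays Incenp measured 8.68 against 9.21, and 7.39 against 8.62. In CpG it measured 10.12, 10.01 and 9.47 on the p50KO arrays and 10.03, 10.00 and 9.82 on the WT arrays. In IFNb it measured 9.99, 9.75 and 9.85 on the p50KO arrays and 10.08, 9.67 and 9.70 on the WT arrays. On the unstimulated arrays of the CpG series it measured 10.11 in p50KO and 10.03 in WT cells, and outside LPS the genotypes lay close, the widest difference being -0.35 at 8 h of CpG. The difference passed the test in LPS (adjusted p = 0.00188) and was -1.38 ± 0.15 without the arrays labelled 3 h (adjusted p = 0.00357). The p50KO effect in LPS minus that in CpG was -1.44 ± 0.20 (adjusted p = 0.0203, 0.262% of all genes lower), and in LPS minus that in IFNb it was -1.57 ± 0.20 and did not pass (adjusted p = 0.0834).

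In fibroblasts LPS lowered many of the same genes. At 8 h 31 of 40 genes fell and 1 rose, against 23.8% of all genes that fell and 12.6% that rose, and the median log2 difference was -0.79, against -2.58 in macrophages. The cell types were normalized separately, and the difference between them was not tested. The falls took in 13 of 17 replication, 4 of 4 G1 and S-entry and 14 of 19 mitosis genes. Among the 13, Prim1 was above background on no WT array of the LPS series. Of the 39 genes tested in both cell types, 28 fell at 8 h in both, which is 84.8% of the 33 that fell in macrophages and 93.3% of the 30 that fell in fibroblasts. Over all 6809 genes tested in both, these shares were 46.5% and 38.9%. The count in fibroblasts depended on the array series term, without which 5 genes passed. Summed macrophage markers were 5340 to 6020 on the LPS 8 h arrays and 3560 to 13000 on the unstimulated arrays. Of the 4 measured, Cd14 lay above and Mrc1 below the unstimulated range, and 2 overlapped it. The part of these markers' cells in the falls was not tested.

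**Figure D5:**
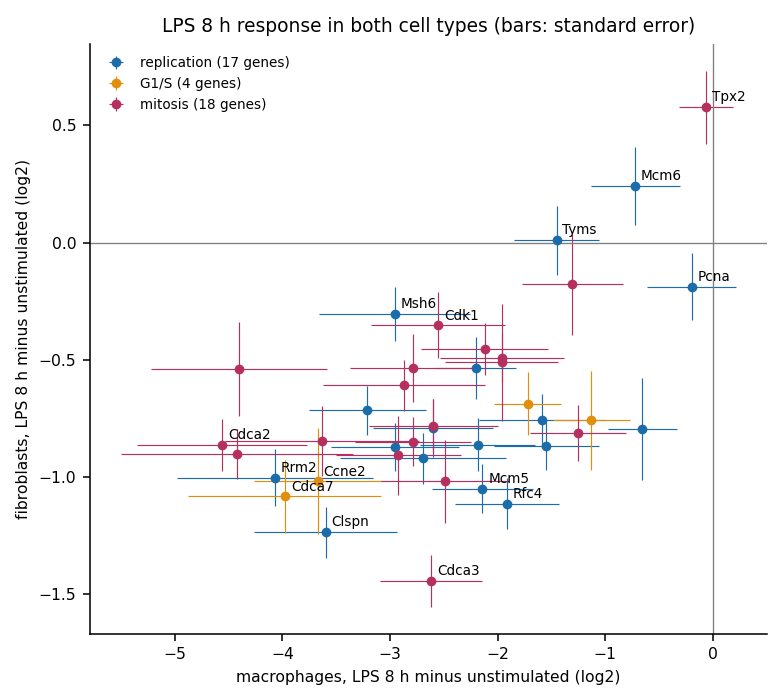
Log2 difference at 8 h of LPS from unstimulated in fibroblasts (vertical) against macrophages (horizontal) for the 39 genes tested in both, with standard errors of the limma fits, coloured by class. Most genes lie to the lower left, with macrophage values down to -4.56 (Cdca2, not above background at 8 h) and fibroblast values down to -1.44, and Tpx2 lies above 0 in fibroblasts.

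Cdca3, a trigger of mitotic entry, measured 11.25, 11.22, 10.76 and 9.71 at 0, 1, 3 and 8 h in p50KO fibroblasts and 11.14, 11.26, 10.65 and 9.79 in WT fibroblasts. It had the largest fall (-1.44 ± 0.11, adjusted p = 0.000143). Mcm5 measured 10.66, 10.61, 10.21 and 9.60 in p50KO and 10.80, 10.79, 10.25 and 9.76 in WT fibroblasts, and it fell (-1.05 ± 0.10, adjusted p = 0.000425). In both genes the genotypes ran side by side and the 8 h arrays were the lowest. Rrm2 measured 8.31, 8.46, 7.77 and 7.20 in p50KO and 8.52, 8.65, 8.25 and 7.62 in WT fibroblasts, with a fall of -1.0 ± 0.12. Clspn (-1.23 ± 0.11), Rfc4 (-1.11 ± 0.11), Cdca7 (-1.08 ± 0.16) and Ccne2 (-1.02 ± 0.23) also fell, with adjusted p between 0.000263 and 0.0122. Ccnd1 measured 11.87, 11.72, 11.30 and 11.29 in p50KO and 12.64, 12.74, 12.09 and 11.85 in WT fibroblasts, and it fell by 0.69.

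Among the genes tested in both, Ccna2, Cdk1, Msh6, Pbk and Tyms fell at 8 h in macrophages and did not pass in fibroblasts. Cdk1 measured 10.15, 10.39, 10.01 and 9.73 in p50KO and 9.76, 9.63, 9.55 and 9.48 in WT fibroblasts, a difference at 8 h of -0.35 ± 0.14 (adjusted p = 0.0904). Top2a measured 8.34, 8.49, 8.22 and 7.83 in p50KO and 8.67, 8.34, 8.48 and 8.12 in WT fibroblasts and fell (-0.53 ± 0.14, adjusted p = 0.0256). Msh6 (-0.30 ± 0.12), Pbk (-0.54 ± 0.20), Ccna2 (-0.51 ± 0.25) and Tyms (0.01 ± 0.15) did not pass. Ccna2 was above background in p50KO fibroblasts alone, at 6.55, 6.56, 6.35 and 5.48. Pbk was above background on no WT array of the LPS series. On the single p50KO arrays, 8 h minus unstimulated was -0.75 for Pbk and -1.07 for Ccna2. Tpx2 was the gene that rose (0.58 ± 0.16, adjusted p = 0.0261), at 10.01, 9.91, 9.88 and 10.81 in p50KO and 8.27, 8.27, 7.81 and 8.62 in WT fibroblasts.

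Several genes that fell early in macrophages also fell by 3 h in fibroblasts. At 3 h 16 of 40 genes fell, against 11.9% of all genes, and these were 10 of 17 replication, 2 of 4 G1 and S-entry and 4 of 19 mitosis genes. At 1 h none passed (limma, 1 at an unadjusted p under 0.05), against 0.582% of all genes. Cdca7 measured 10.16, 9.56, 8.49 and 9.01 in p50KO and 10.44, 9.97, 9.37 and 9.43 in WT fibroblasts. Cdt1 measured 9.94, 9.85, 8.88 and 9.06 in p50KO and 8.81, 8.76, 7.86 and 8.18 in WT fibroblasts. Msh6 measured 11.25, 11.01, 10.58 and 10.81 in p50KO and 10.81, 10.55, 10.21 and 10.64 in WT fibroblasts. In all 3 genes the 3 h array was the lowest of its genotype. The log2 differences at 3 h were -1.37 ± 0.16 for Cdca7 (adjusted p = 0.00149), -1.0 ± 0.11 for Cdt1, -0.95 ± 0.11 for Clspn, -0.89 ± 0.11 for Cdca2, -0.87 ± 0.12 for Cdc6 and -0.64 ± 0.12 for Msh6 (adjusted p = 0.0103). Of the genes tested in both cell types 10 fell at 3 h in both, 76.9% of the 13 in macrophages and 62.5% of the 16 in fibroblasts, where over all 6809 genes tested in both these shares were 38.6% and 25%. They were Ccnd1, Cdc6, Cdca2, Cdca3, Cdca7, Cdt1, Clspn, Msh6, Rfc4 and Tk1.

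Ccne1 took its own course in fibroblasts, at 7.11, 7.20, 8.21 and 6.50 in p50KO and 8.28, 8.15, 8.44 and 7.37 in WT cells. Its 3 h array was the highest and its 8 h array the lowest in both genotypes. The difference was 0.63 ± 0.21 at 3 h (adjusted p = 0.0814) and -0.76 ± 0.21 at 8 h (adjusted p = 0.0289).

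With IFNb for 8 h, on 1 WT fibroblast array against its own unstimulated array, the median of the set was -0.15. No gene was at least 2-fold lower, the lowest being Cdca7 (8.02 with IFNb and 8.98 unstimulated). Mcm6 (11.14 and 9.56) and Tpx2 (10.29 and 9.01) were at least 2-fold higher, against 4.09% of all genes higher and 0.944% lower. The Mcm6 values come from 1 probe. On the unstimulated WT and p50KO arrays of the LPS series that probe measured 8.48 and 11.90. A dimmer probe of Mcm6, above background on all 10 fibroblast arrays, measured 9.54 and 9.12 there. Between the genotypes of fibroblasts 18 genes of the set were higher and 13 lower in p50KO, but 74.5% of all genes passed that test, so these counts do not set the genes apart. The p50KO arrays had 11735 to 12389 probes above background and the WT arrays of the LPS series 8266 to 8959.

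Regulators of these genes and other genes of the same pathways were read from lists that do not include the 50. In macrophages at 8 h of LPS 14 of 32 measured regulators fell and 4 rose, beside 18.2% of all genes that fell and 12.3% that rose, so the share that rose was near that of all genes. The falls were led by Mybl2, the gene of B-Myb (-4.09 ± 0.68, adjusted p = 0.00197), the kinase inhibitor gene Cdkn2c (-3.01), E2f2 (-2.94), the checkpoint kinase gene Chek2 (-2.55), the phosphatase gene Cdc25b (-2.39) and Tfdp1, the partner of the E2F proteins (-2.32). Those that rose were Ccng2 (1.98), Ccnd2, the gene of cyclin D2 (1.40), Cdkn2d (0.89) and E2f3 (0.79). Of 28 other replication genes 22 fell, led by Uhrf1, a maintenance factor of DNA methylation (-3.02), Cdc7 (-2.98), Pold2 (-2.74) and Pold1 (-2.72). Of 21 other mitosis genes 16 fell, led by Kif2c (-4.22), Ncapd2 (-3.35) and Kif22 (-3.33), and Pttg1, the securin gene, rose (2.09).

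In fibroblasts at 8 h of LPS 9 of 29 regulators fell, led by Chek2 (-1.41), Cdkn1c (-1.15) and Cdkn2c (-1.10), and 5 rose, among them Btg1 (1.23), the p21 gene Cdkn1a (1.09) and Gadd45a (1.02). Both counts were near the shares over all genes, of which 23.8% fell and 12.6% rose. Of 28 other replication genes 19 fell, and of 23 other mitosis genes 12 fell, while Pttg1 rose (1.48).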

How the data were processed

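Per the labels, biotin-labelled cRNA was hybridised to Illumina bead arrays. The authors deposited, per probe, a linear intensity that was not normalized and a detection p-value against the array's negative controls, made with BeadStudio per the submitters' processing notes. A second deposited set of normalized intensity values served as an alternative, whose method the sources used here do not state. Intensities were background-corrected by normexp (limma's nec, offset 16), quantile normalized within each cell type (25697 BMDM and 24599 MEF probes) and taken to log2. Of these, 23978 and 20974 had 1 gene symbol, 0 and 1 several, and 1719 and 3624 none. Each gene is its brightest detected probe.

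Two-sided limma tests (lmFit and eBayes, errors are SE) were fitted over 21 BMDM arrays and over 10 MEF arrays. Terms were condition, genotype and array series (9 and 3 residual degrees of freedom). Tests of p50KO minus WT per agent in BMDM used separate genotype terms for each agent and unstimulated cells (6 residual degrees of freedom). Conditions of IFNARKO and MEF IFNb, with 1 array each, were not tested. Where no array of a group was above background, folds are bounds. Software was R 4.3.3, limma 3.58.1, statmod 1.5.0, Python 3.11.15, numpy 2.4.6, pandas 2.3.3 and matplotlib 3.10.9. The fits were tested on simulated data.

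The genes, their classes and the other lists were chosen with earlier results of these data known. Named genes were all 50, with values per array for 12 fixed genes where measured and for up to 6 genes with the largest difference among those passing each test. Of the other lists, up to 6 passing genes per comparison could be named. Further genes (Cdt1, Msh6, Tpx2, Pcna and Incenp among them) were given per array after their values were seen. The number of arrays limits the precision.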

Additional observations from a re-analysis of the deposited data

Results flagged for a closer look

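Incenp is set apart because its p50KO minus WT difference was not the same under different stimuli in macrophages. The difference was -1.52 ± 0.14 in LPS and -0.08 ± 0.14 in CpG (SE of the limma fit, 3 p50KO and 3 WT arrays each), and LPS minus CpG was -1.44 ± 0.20 (adjusted p = 0.0203). The p50KO array was lower at 3 of 3 labelled LPS times. In IFNb the difference was 0.05 ± 0.14, and LPS minus IFNb did not pass the test. The p50KO arrays labelled LPS 1 h and 3 h stood apart from their labels, so differences matched by label can include a difference in time. At 8 h, where both genotypes lay close over the set, p50KO measured 7.28 and WT 8.62.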

How the results depend on the processing

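The macrophage LPS 8 h count of 36 genes was 31 to 41 under the other settings, 36 to 41 without either unstimulated WT array, and 22 with the arrays of the CpG series left out, which fits fewer arrays. The p50KO minus WT count in LPS (11) was 8 to 15 under most settings but 1 with no filter on dim probes, 1 within the LPS and IFNb series and 6 without the arrays labelled LPS 3 h, and Incenp passed in each of these. For IFNb at 8 h, 0 genes became 1 without all LPS arrays, and 0 to 5 without either unstimulated WT array, 5 when the one of the LPS series was left out. For CpG at 8 h, 0 became 7 within the CpG series and 4 without all LPS arrays. The p50KO minus WT count over all conditions went to 2 within the CpG series (0 before). In CpG that count went to 4 without all LPS arrays (0 before), 3 lower and 1 higher. There 5.31% of all genes passed in either direction. In MEF, with no array series term, the LPS 8 h count was 5 (32 before) and the genotype count 17 (31 before). Without either unstimulated WT array the LPS 8 h count was 25 to 32. The cause of these shifts was not tested. The settings without LPS arrays were chosen after seeing the data. Of 263 comparisons of a single named gene with its main value, none changed direction and 23 no longer passed. No paired analysis was possible because the labels carry no replicate numbers and each condition has 1 array per genotype. Array number and signal near background limit these results.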
